A study of Macaca mulatta with 18 samples.

Results

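The expression of 10 genes of the blood vessel wall and its growth signals was examined in aging rhesus monkey muscle. They were 8 genes that mark endothelial cells (PECAM1, VWF, CDH5, KDR, FLT1, TEK, TIE1 and ENG) and 2 genes of the vascular endothelial growth factor (VEGF) family (VEGFA and VEGFB). Every array probe annotated to one of these symbols was included, which gave 15 of the 47323 probes on the array, for 10 of 20046 gene symbols.

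The samples were biopsies of the vastus lateralis, a thigh muscle, from male rhesus monkeys (Macaca mulatta) of 3 ages. Young monkeys were 6.00 ± 0.00 years old (SEM, n = 6), middle-aged monkeys 16.48 ± 0.31 years (n = 6) and old monkeys 26.83 ± 0.22 years (n = 6). All 18 animals were untreated as far as the labels state, lived singly on standard chow and gave 1 array each. The question was whether vessel genes differ in muscle between the ages, and each age was compared with both of the others.

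Endothelial cells line every blood vessel and hold together through junction proteins, of which PECAM1 and CDH5 (VE-cadherin) are typical. In skeletal muscle VEGFA, made largely by the fibers, is a main signal for capillary growth. It acts on endothelial cells through the receptor KDR, while FLT1 binds both VEGFA and VEGFB. TEK is the receptor for the angiopoietins, of which ANGPT1 steadies mature vessels, and TIE1 is the partner receptor of TEK. ENG is a co-receptor of the TGF-beta pathway, and VWF is a clotting protein that endothelial cells store and release.

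The arrays carry probes designed on human transcripts, and how well each probe matches the monkey transcript was not tested. Values are given as normalised intensity, in arbitrary units, after each array had been set to the same mean and spread on the log scale. A level of 1 probe cannot be set against the level of another. A probe counted as detected on an array when its detection p-value, obtained from the negative control probes, was under 0.05, and it was tested when this held on at least 6 of the 18 arrays. Between 24.5% and 30.5% of all probes were detected per array. All 8 skeletal muscle markers that were looked up (ACTA1, CKM, MB, DES, TTN, MYBPC1, PYGM and CASQ1) were detected widely enough to be tested. The array of young replicate 6 had the highest share of detected probes and the lowest mean correlation with the other arrays, 0.944 against 0.956 to 0.972 for the rest. Results that rest on this animal are given with and without it.

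Of the 15 probes, 8 probes of 6 genes passed the detection filter: PECAM1, VWF, CDH5, 2 probes of TEK, 1 of VEGFA and 2 of VEGFB. Thus 4 of the 8 endothelial markers had a measured level. KDR, FLT1, TIE1 and ENG had no level above background on enough arrays, so the VEGF receptors KDR and FLT1 had no measured level to compare between ages.

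None of the 8 tested probes passed the test between ages. In old against young muscle 0 of 8 passed an adjusted p of 0.05 in limma, beside 0.19% of all 14188 tested probes. In middle-aged against young muscle it was 0 of 8, beside 0.0211% of all probes, and in old against middle-aged muscle 0 of 8, beside 0.874%. At an unadjusted p under 0.05 the count was also 0 of 8 in each comparison, where all probes gave 11.1%, 10.4% and 17.5%. The ages overlapped for each of the 8 probes in each comparison, whereas 0.973%, 0.789% and 1.93% of all probes did not overlap. By the test in the study's methods, at the study's own thresholds on Z scores, 0 of the 15 probes passed in each comparison, beside 2.14%, 2.18% and 3.16% of all 47323 probes. Those thresholds ask for a mean Z score above 0. The member probes that missed the detection filter had a mean below 0, so they could not pass. With so few calls among all probes, a count of 0 among 8 lies near the background. Over all alternatives run, the lowest adjusted p of a member was 0.103, and the number at an unadjusted p under 0.05 reached 3 of 8, in old against middle-aged muscle without middle-aged replicate 2.

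Among the junction proteins, PECAM1 (probe ILMN_1689518) was detected in all 18 animals. In young muscle its normalised intensity ran from 261 to 968 with a median of 364. Middle-aged animals lay between 294 and 613 (median 527), and old animals between 378 and 547 (median 440). The old animals fell inside the range of the young, whose top value came from young replicate 6 and stood apart from the next young value of 474. The log2 fold change was 0.12 in old against young (SE 0.25, adjusted p = 0.91), 0.16 in middle-aged against young (adjusted p = 0.86) and -0.04 in old against middle-aged muscle (adjusted p = 0.96). Without young replicate 6 the differences from young were 0.37 in old and 0.41 in middle-aged muscle, still short of the threshold (adjusted p = 0.40 and 0.39).

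CDH5 (probe ILMN_1719236), the cadherin of endothelial junctions, was detected in 17 animals. Its level was 115 to 315 in young (median 177), 100 to 255 in middle-aged (median 191) and 124 to 175 in old muscle (median 132). The highest old animal was thus no higher than the median young one, but the lowest young and middle-aged animals lay below every old animal. The log2 fold change was -0.30 in old against young (SE 0.24, 95% interval -0.80 to 0.21, adjusted p = 0.73), -0.04 in middle-aged against young and -0.26 in old against middle-aged muscle (adjusted p = 0.98 and 0.62). Leaving out young replicate 6 brought the difference between old and young to -0.12 and turned that between middle-aged and young to 0.14 (adjusted p = 0.86 and 0.85).

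VWF (probe ILMN_1752755) was detected in all 18 animals, at 1076 to 2157 in young (median 1180), 1112 to 2474 in middle-aged (median 1681) and 997 to 1483 in old muscle (median 1326). The 4 highest middle-aged animals lay above all old animals and above all young animals except replicate 6, while the other 2 lay among them. Middle-aged against young muscle gave a fold of 1.25 (95% interval 0.958 to 1.64, adjusted p = 0.57). Old against middle-aged muscle gave a fold of 0.79 (0.605 to 1.03, adjusted p = 0.35), and old against young 0.99 (0.757 to 1.29, adjusted p = 0.99). Without young replicate 6 the log2 difference of middle-aged against young grew from 0.32 to 0.47, with an adjusted p of 0.27, and that of old against young turned from -0.02 to 0.13.

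TEK, the angiopoietin receptor, had 2 detected probes that ran together over the 18 animals (Pearson's r = 0.94, Spearman's rho = 0.94, permutation p = 1e-05 for both, the smallest that 100000 resamples can give). Leaving out the 2 animals farthest from the median gave r = 0.91, and within ages r was 0.95. The brighter probe (ILMN_2066151) read 154 to 305 in young muscle (median 181), 168 to 277 at middle age (median 234) and 149 to 230 at old age (median 193). The second probe (ILMN_1751576) read 115 to 218, 118 to 194 and 119 to 154, with medians of 144, 165 and 152. Both probes placed young replicate 6 highest of all animals, and the ages overlapped throughout. In old against middle-aged muscle the log2 fold changes were -0.27 (SE 0.16, adjusted p = 0.41) and -0.13 (SE 0.14, adjusted p = 0.67). In the comparisons with young muscle they lay between -0.09 and 0.18, and none passed. Without young replicate 6 the old against young values turned from -0.09 to 0.028 for the brighter probe and from -0.08 to 0.026 for the second (adjusted p = 0.96 and 0.95). The middle-aged against young values became 0.30 and 0.16 (adjusted p = 0.45 and 0.67).

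**Figure D1:**
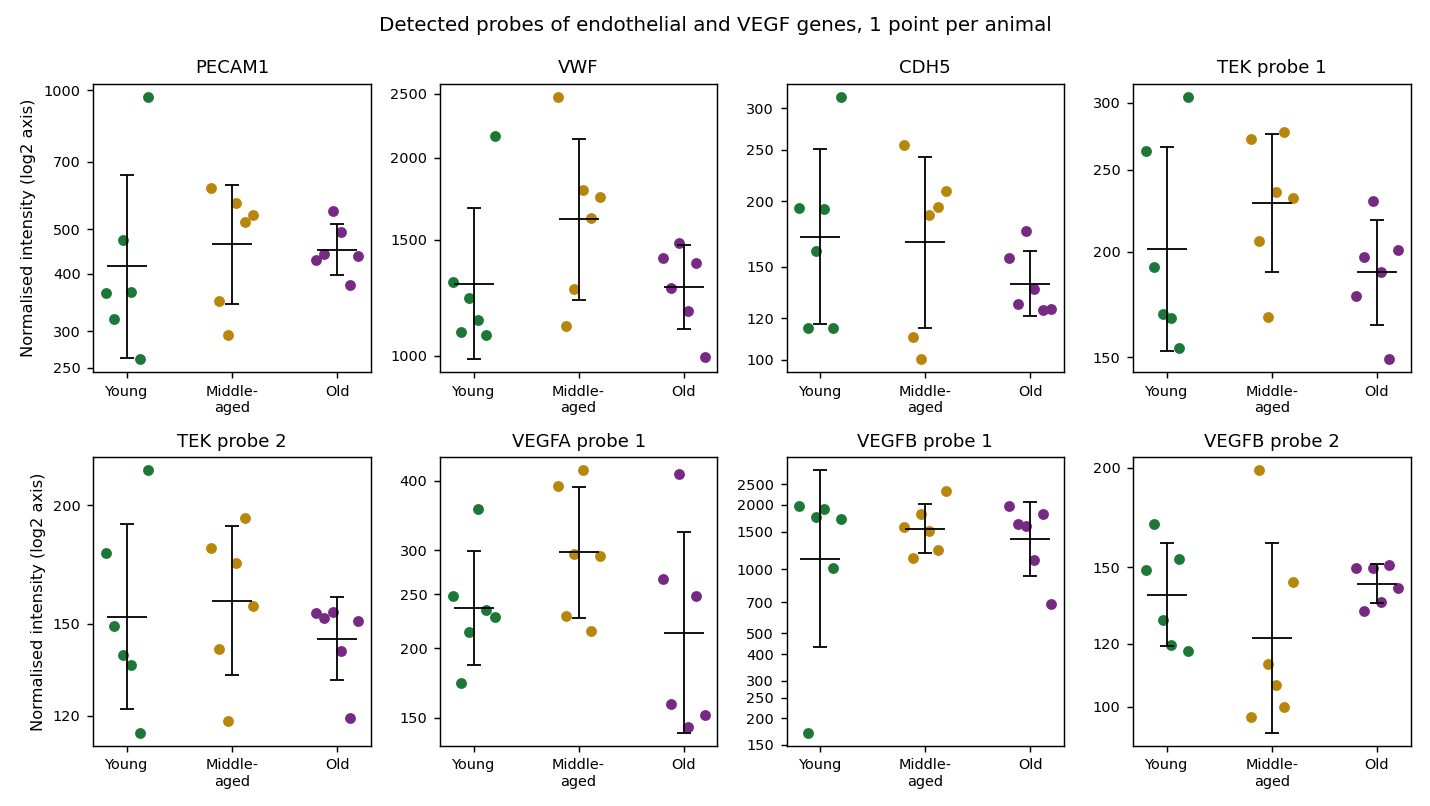
Normalised intensity (log2 axis, arbitrary units) of the 8 tested probes in young, middle-aged and old muscle, 1 point per animal, with the mean and SD of the log2 values as black bars. The ages overlap in each panel; young replicate 6 is the highest point for PECAM1, CDH5 and both TEK probes, and 1 young animal lies at 171 for VEGFB probe 1 where the other young animals lie at 1009 or above.

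VEGFA, the ligand that drives capillary growth, was measured by 1 of its 3 probes (ILMN_2375879), detected in all 18 animals. Young animals lay between 173 and 356 (median 231), middle-aged between 214 and 417 (median 294) and old between 144 and 411 (median 204). Old animals were spread widely, with 3 below every young and middle-aged animal at 144, 152 and 159, and old replicate 3 at 411 above all young animals. The log2 fold change of old against middle-aged muscle was -0.48 (SE 0.24, 95% interval -0.98 to 0.03), the largest of VEGFA, and missed the threshold (adjusted p = 0.31 in limma). It was 0.33 in middle-aged against young (adjusted p = 0.67) and -0.15 in old against young muscle (adjusted p = 0.88). The latter became -0.34 without old replicate 3 and -0.03 without young replicate 4 (adjusted p = 0.59 and 0.98). The other 2 VEGFA probes, ILMN_1803882 and ILMN_1693060, were detected on 0 of 18 arrays, so the VEGFA result rests on 1 probe.

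VEGFB, a ligand of FLT1, had 2 detected probes, which did not run together. The brighter one (ILMN_1726981) read 171 to 1969 in young (median 1737), 1124 to 2336 in middle-aged (median 1538) and 686 to 1974 in old muscle (median 1618). The value of 171 belonged to young replicate 2 and was 167 in the deposited intensities, while the next young animal read 1009. On the second probe (ILMN_1722855) the same animal read 170, the second highest of all 18 animals. That probe was detected on 16 arrays. It read 118 to 170 in young animals, with a median of 139, 97 to 199 in the middle-aged (median 110) and 132 to 151 in the old (median 145). Over the 18 animals the 2 probes gave r = -0.35 (permutation p = 0.165) and rho = -0.16 (permutation p = 0.538), and r = -0.12 without young replicate 2 and old replicate 6, the 2 animals farthest from the median of the brighter probe. Within ages r was -0.32.

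The fold changes of the brighter VEGFB probe against young muscle hung on young replicate 2. By the brighter probe the log2 fold change was 0.31 in old against young (SE 0.46, adjusted p = 0.87) and 0.47 in middle-aged against young muscle (SE 0.46, adjusted p = 0.77). Without young replicate 2 they became -0.23 and -0.07 (adjusted p = 0.85 and 0.94), so the sign turned in both. By the second probe they were 0.05 and -0.18 (SE 0.15, adjusted p = 0.95 and 0.71). In old against middle-aged muscle the probes gave -0.16 and 0.23, neither past the threshold (adjusted p = 0.90 and 0.44). No age difference in VEGFB passed the test, and the interval of the brighter probe, a fold of 0.634 to 2.42 for old against young, spans both directions.

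**Figure D2:**
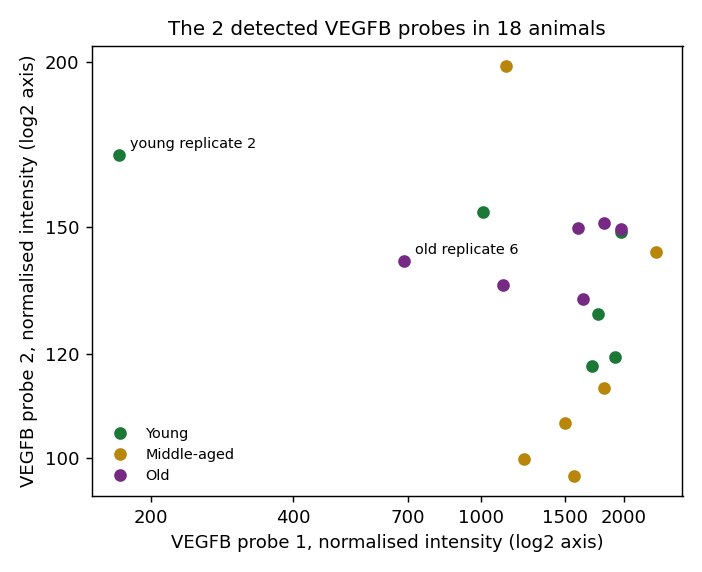
Normalised intensity (log2 axes, arbitrary units) of VEGFB probe 1 against VEGFB probe 2 in the 18 animals, coloured by age. Young replicate 2 lies far to the left at 171 on probe 1 but second highest on probe 2 at 170, and the points show no common trend (r = -0.35).

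The probes below the detection filter are described by level only. The KDR probe was detected on 1 of 18 arrays, that of middle-aged replicate 5, at 114, and its other values lay between 57.7 and 88.0. TIE1 was likewise detected on 1 array, middle-aged replicate 4 at 118, with 98.9 as the next value and 49.8 as the lowest. FLT1 lay between 41.1 and 55.9 and ENG between 55.2 and 76.2, with 0 arrays detected for both. VEGFA probe 2 lay between 57.2 and 96.0 and VEGFA probe 3 between 46.9 and 64.8. VEGFB probe 3 (ILMN_1801814) was detected on 1 array, young replicate 6, at 103. These values are not well above background, and they do not show that a gene is silent.

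**Figure D3:**
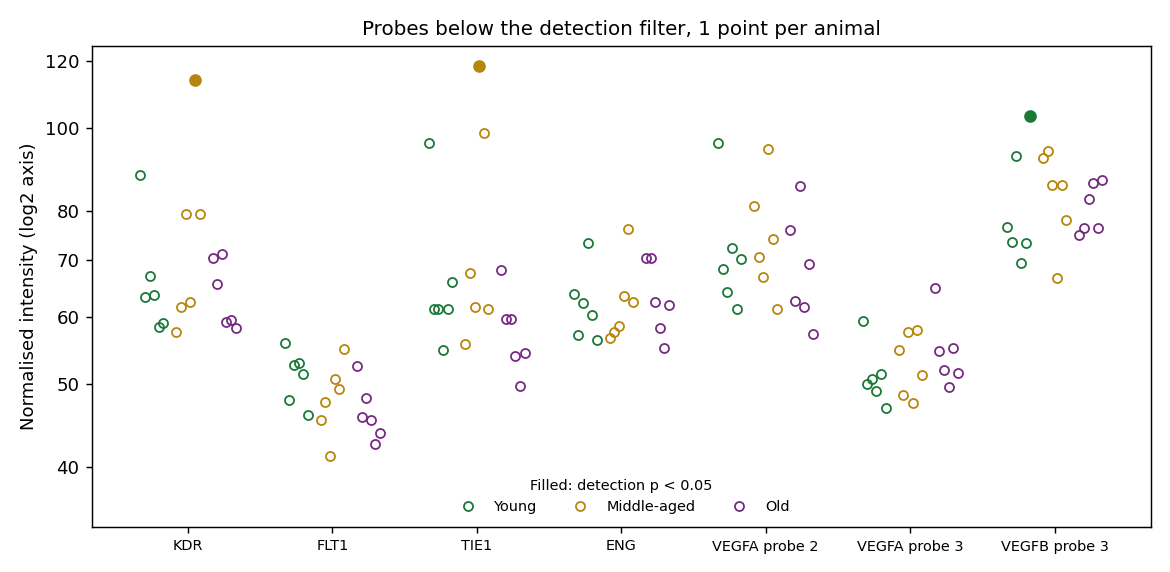
Normalised intensity (log2 axis, arbitrary units) of the 7 probes that missed the detection filter, 1 point per animal, coloured by age and filled where the detection p was under 0.05. Only 3 points are filled, 1 each for KDR, TIE1 and VEGFB probe 3.

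Standard errors of the 8 probes were 0.14 to 0.46, where the median over all probes was 0.12. The median log2 fold change over the 8 probes was -0.05 in old against young, 0.17 in middle-aged against young and -0.21 in old against middle-aged muscle. Over all tested probes it was -0.0037, -0.011 and 0.013. In old against middle-aged muscle 7 of 8 probes lay below 0, where 47.0% of all probes did. The mean was highest in middle-aged muscle for 6 of the 8 probes, against 32.5% of all probes. The endothelial probes among them were correlated over the animals, so these counts are not of independent probes, and no single probe passed the test.

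**Figure D4:**
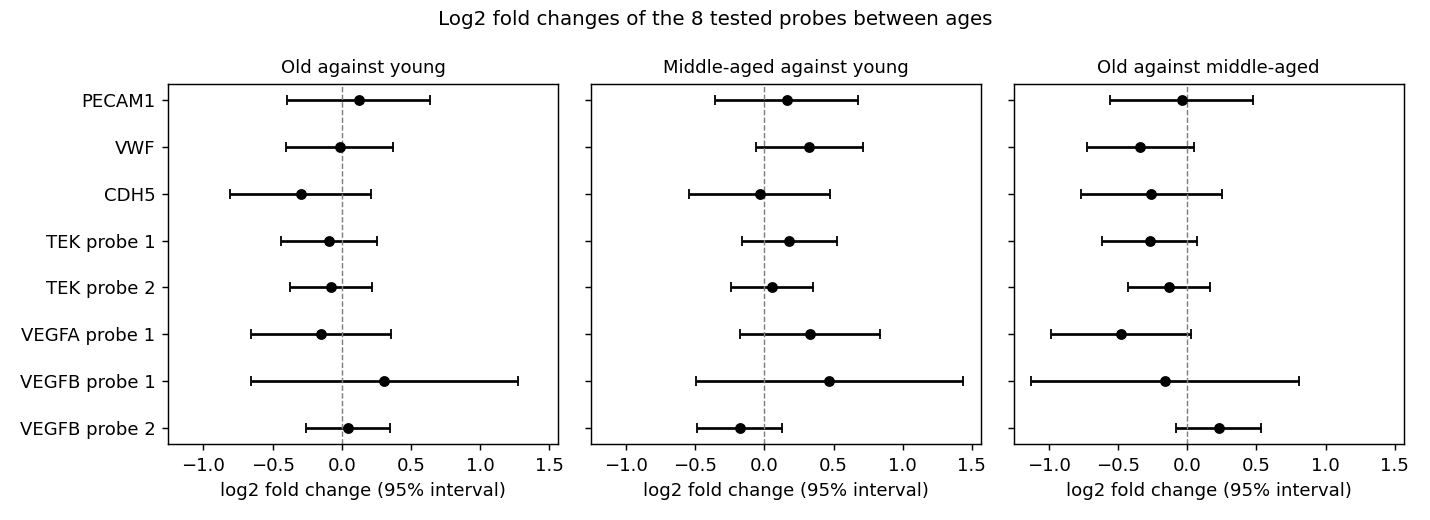
Log2 fold changes of the 8 tested probes in the 3 comparisons, with 95% intervals from limma as bars and a dashed line at 0. Each of the 24 intervals includes 0; those of VEGFB probe 1 are the widest.

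The endothelial genes ran together from animal to animal. Young replicate 6 was highest of 18 for PECAM1, CDH5 and both TEK probes and second for VWF, and middle-aged replicate 1 was highest for VWF and second for PECAM1 and CDH5. PECAM1 and CDH5 correlated over the 18 animals (r = 0.81, rho = 0.77, permutation p = 5e-05 and 0.00041, adjusted p = 0.00025 and 0.002), as did PECAM1 and VWF (r = 0.77, rho = 0.77, permutation p = 0.00015 and 0.00028, adjusted p = 0.0005 and 0.002). The remaining 4 pairs of PECAM1, VWF, CDH5 and TEK, added after the data were seen, gave r between 0.70 and 0.81 and rho between 0.62 and 0.74 (adjusted permutation p of 0.0019 or less for r and 0.011 or less for rho). Without the 2 animals farthest from the median, r was 0.71 for PECAM1 and CDH5, 0.70 for PECAM1 and VWF, and 0.52 to 0.65 for the other 4 pairs. Without young replicate 6 the 6 values were 0.62 to 0.75, and within ages 0.65 to 0.88. In muscle RNA of mixed cells, a larger share of endothelial cells cannot be told apart from more RNA of these genes per cell.

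The ligands were correlated less closely. VEGFA and VEGFB (brighter probe) gave r = 0.48 (permutation p = 0.0373, adjusted p = 0.047) and rho = 0.47 (permutation p = 0.0495, adjusted p = 0.062). Only r passed, with 5 pairs added after the data were seen among those adjusted over. An adjustment over the planned pairs alone was not run, so this pass holds only for the wider set. Without the 2 farthest animals r was 0.52 and within ages 0.48. VEGFA and VWF, a pair added after the data were seen, gave r = 0.54 (permutation p = 0.0217, adjusted p = 0.031) and rho = 0.52 (permutation p = 0.0287, adjusted p = 0.041), with 0.51 and 0.43 under the same checks. Both pairs lost the threshold under quantile normalization (adjusted p = 0.067). Without young replicate 2, the animal far below the rest on the brighter VEGFB probe, VEGFA and that probe gave r = 0.51. The correlation of VEGFA with the second VEGFB probe, which did not run with the brighter one, was not computed. VEGFA was also set against HIF1A, the oxygen-sensing transcription factor that drives it in hypoxia (r = -0.35, rho = -0.35, permutation p = 0.16 and 0.152), and against PPARGC1A, a coactivator that induces it in exercised mouse muscle (r = 0.35, rho = 0.37, permutation p = 0.152 and 0.137). Neither passed (adjusted p = 0.16 for r and 0.152 for rho in both). P-values were adjusted over the 10 pairs computed, 5 of them planned and 5 added after the data were seen.

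**Figure D5:**
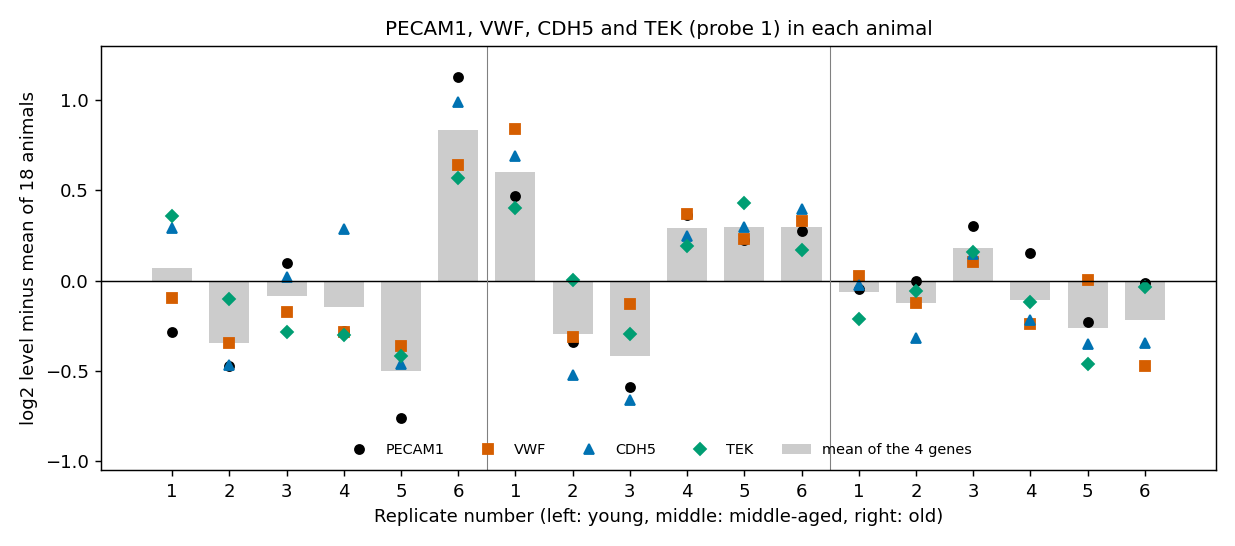
Log2 level of PECAM1, VWF, CDH5 and TEK (probe 1) in each of the 18 animals minus the mean of all animals (points), with the mean of the 4 genes as grey bars. Young replicate 6 (mean 0.83) and middle-aged replicate 1 (0.60) stand highest, and old animals stay within -0.26 and 0.18.

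The spread between animals was smallest in old muscle for all 5 endothelial probes, which held for 30.7% of all probes. These probes were correlated over the animals, so the count is not of independent probes. Their SD on the log2 scale was 0.15 to 0.21 in old, 0.26 to 0.54 in middle-aged and 0.32 to 0.66 in young muscle. Over all probes the median SD was 0.19 in young, 0.19 in middle-aged and 0.20 in old muscle. Without young replicate 6 the old SD was smallest for 4 of the 5 probes (23.9% of all probes), since the young SD of VWF dropped from 0.38 to 0.12, below the old value of 0.21. VEGFA went the other way, with its largest SD in old muscle (0.60, against 0.34 in young and 0.39 in middle-aged). The difference between these spreads was not tested.

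Young replicate 6, which stood high for endothelial genes, also stood apart in genes of other cells. In young replicate 6 the mean level of 15 other endothelial markers was 0.62 above the mean of all animals on the log2 scale (next young animal 0.09). In the same animal 7 pericyte and smooth muscle markers lay 0.74 above (next -0.10), 7 fibroblast and matrix markers 1.55 above (next 0.47) and 4 macrophage markers 1.09 above (next 0.47). The 8 skeletal muscle markers lay at -0.75 in this animal, the lowest of all animals (lowest middle-aged value -0.37, lowest old value -0.33). In middle-aged replicate 1 the 15 other endothelial markers lay at 0.36, the highest of its age, and 7 slow fiber markers at -2.61, the lowest of its age. Its values were not the highest of its age for pericyte, fibroblast, adipocyte or macrophage markers. The part of such differences in the levels of PECAM1, VWF, CDH5 and TEK was not tested.

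Other genes of the vessel wall gave no call either. Of 25 other endothelial markers 15 were tested and 0 were called in each comparison. Among all probes 0.19% were called in old against young, 0.0211% in middle-aged against young and 0.874% in old against middle-aged muscle. In old against middle-aged muscle 12 of the 15 lay below 0 (median -0.11), where 47.0% of all probes did. The smallest p was that of ESAM, an adhesion molecule of endothelial junctions, at a log2 fold change of -0.51 (SE 0.21, adjusted p = 0.20). Next came SOX18, a transcription factor of vessel development, at -0.38 (SE 0.25, adjusted p = 0.45). In old against young 10 of 15 lay below 0 (median -0.09), and in middle-aged against young 6 of 15 (median 0.016), where 51.1% and 53.1% of all probes did. Endothelial genes can run together over the animals, as the members did, so these counts are not taken as independent. Of 7 adhesion and lymphatic genes 2 were tested, with PDPN at -0.29 and VCAM1 at -0.11 in old against middle-aged muscle (adjusted p = 0.48 and 0.63).

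No gene was called among the signalling partners. Of 7 other VEGF ligands and receptors 3 were tested. In old against middle-aged muscle PGF, a ligand of FLT1, stood at 0.24 (adjusted p = 0.37) and NRP1, a VEGF co-receptor, at -0.04 (adjusted p = 0.83). Of 12 angiopoietin, angiopoietin-like, Notch and TGF-beta genes 7 were tested. The smallest p fell to ANGPTL4, an angiopoietin-like gene, at -0.25 and SMAD6, an inhibitor of BMP signals, at -0.30 in the same comparison (adjusted p = 0.30 for both). The angiopoietin gene ANGPT1 stood at 0.16 there (adjusted p = 0.35). Of 16 hypoxia response genes 12 were tested. BNIP3, a mitophagy receptor, stood at 0.36 (adjusted p = 0.15) and EGLN2, a prolyl hydroxylase that marks HIF for decay, at -0.40 (adjusted p = 0.15) in old against middle-aged muscle. HIF1A itself was at -0.20 in old and -0.30 in middle-aged muscle against young (adjusted p = 0.56 and 0.35), and PPARGC1A at -0.09 and 0.28 (adjusted p = 0.95 and 0.80).

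Hemoglobin genes passed the test in 1 comparison. Of 5 tested erythrocyte markers 3 rose in old against young muscle, the hemoglobin genes HBA1, HBA2 and HBB, by 4.16, 3.68 and 3.58 on the log2 scale (adjusted p = 0.031 in limma for each). These calls were near the threshold. Without any 1 of old replicates 1, 2, 3 and 6 or young replicates 2, 3, 4 and 5, 0 of the 3 genes passed (adjusted p = 0.052 to 0.083), and without young replicate 1 only 1 did. With only the 2 ages in the fit 0 passed (adjusted p = 0.091 to 0.12), and under quantile normalization 2 did. AHSP and ALAS2 did not pass (adjusted p = 0.74 and 0.26), and none of the 5 passed in the other comparisons. The mean of the 5 markers ran between -1.28 and -0.63 in young animals. Middle-aged animals lay between -0.89 and 0.69, and old animals between -0.70 and 3.16. Its part in the levels of the endothelial and VEGF genes was not tested. No gene was called among 7 pericyte and smooth muscle markers, 7 fibroblast and matrix markers, 5 adipocyte markers or 4 macrophage markers in any comparison. In the pericyte and fibroblast lists the smallest p lay between middle-aged and young muscle, with MYH11 at 1.14 and TAGLN at 1.19, both of smooth muscle (adjusted p = 0.25 and 0.28), and the collagens COL1A1 at -1.14 and COL5A2 at -0.91 (adjusted p = 0.34 and 0.31). Of the 7 pericyte and smooth muscle markers, 4 lay above 0 and 3 below in that comparison (median 0.021). All 7 fibroblast and matrix markers lay below 0 there (median -0.18).

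The genes whose levels ran most like the members over the 18 animals were listed among 8583 genes, as a description. For the mean of PECAM1, VWF, CDH5 and TEK they were CYYR1 (r = 0.92), MFNG (0.92), IFITM2 (0.91), ADGRL4 (0.90) and GNG11 (0.89), and without young replicate 6 these values were 0.93, 0.88, 0.87, 0.85 and 0.83. For VEGFA they were TRA2B (0.84), BAG3 (0.82), AGFG1 (0.80), KAT8 (0.79) and TOMM5 (0.78), which kept r of 0.79 to 0.84 without young replicate 6. For the brighter VEGFB probe they were HLA-DPA1, RWDD3, NDUFB9, SEC63 and IMP3, at 0.71 to 0.73. Without young replicate 2 NDUFB9 fell to -0.11, IMP3 to 0.27 and SEC63 to 0.29, while HLA-DPA1 (0.69) and RWDD3 (0.59) moved less. All points of such a correlation share the array and its normalization, and the genes were picked as the highest of many.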

How the data were processed

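Each of 18 muscle biopsies was run on its own Sentrix Human HT-12 BeadChip array. The authors deposited the intensity of each probe, not normalized, with a detection p-value per probe, both exported from GenomeStudio 2011.1. Whether background had been subtracted is not given in the sources used here. They also deposited Z scores, a score of each natural log intensity within its array. When computed anew from the intensities, no score moved by more than 0.0184. For the present work these scores were put back on a log2 scale, using the average over arrays of the SD (1.19) and of the mean (6.72), and 2 to this power is the normalised intensity.

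Groups came from the labels. Of 47323 probes, 30113 had 1 gene symbol, 8 several and 17202 none. The 14188 probes that were detected (p under 0.05) on 6 or more arrays were fitted with limma 3.58.1 in R 4.3.3 (lmFit, eBayes, all 18 animals, no covariates), with Benjamini-Hochberg adjustment over all of them and a threshold of 0.05. The fit was tested on simulated data. The number of arrays limits the precision, and limma p-values weigh a difference between ages against the variation between animals. With 1 array per animal, this variation cannot be split from that of the biopsy or the array. No scan date or slide was used. Correlations used 100000 permutations, two-sided, in Python 3.11.15. Of 8 listed pairs 5 could be computed, and 5 were added.

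All 10 genes are named. Other lists are named by their calls, else by up to 2 genes with the smallest p. For likeness, the 5 highest r are given. The members and lists were chosen with earlier results of these data known. Alternatives were quantile and neqc normalization (offset 16), the deposited Z scores, other detection filters, 1 probe per gene, array weights, a replicate block, 2 ages per fit, the methods' t-test, and leaving out each animal.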

Additional observations from a re-analysis of the deposited data

Results flagged for a closer look

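In 3 of the 24 sets of 6 animals (8 probes in 3 ages) the highest or lowest animal stood far from the rest, with a gap to its neighbour that was large against the whole range, both taken on the log2 scale. Chance alone sets an animal apart in this way in about 1 in 20 sets. VWF in young replicate 6 read 2157, where the other young animals lay between 1076 and 1296 (a gap of 0.733 of the log2 range). VEGFB probe 1 in young replicate 2 read 171, where the others lay between 1009 and 1969 (0.726 of the log2 range). TEK probe 2 in old replicate 5 read 119, where the others lay between 140 and 154 (0.632 of the log2 range). Young replicate 6 was also the array with the lowest mean correlation with the others, 0.944.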

How the results depend on the processing

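The count of called probes stayed 0 of 8 in each comparison under each alternative run, and 13 of the 24 log2 fold changes kept their sign throughout. With array weights the sign turned for VWF (0.0902), TEK probe 1 (0.059) and TEK probe 2 (0.047) in old against young and for CDH5 (0.10) in middle-aged against young muscle. Under quantile normalization the correlations of VEGFA with VEGFB (0.45) and with VWF (0.46) no longer passed (adjusted p = 0.067). Leaving out 1 animal at a time turned the sign in 11 of the 24. In old against young muscle the ranges were -0.011 to 0.37 for PECAM1, -0.067 to 0.13 for VWF, -0.17 to 0.028 for TEK probe 1, -0.16 to 0.026 for TEK probe 2, -0.23 to 0.51 for VEGFB probe 1 and -0.0001 to 0.11 for VEGFB probe 2. In middle-aged against young muscle they were -0.16 to 0.14 for CDH5, -0.025 to 0.16 for TEK probe 2 and -0.072 to 0.63 for VEGFB probe 1. In old against middle-aged muscle they were -0.17 to 0.041 for PECAM1 and -0.26 to 0.0425 for VEGFB probe 1. The cause was not tested. With the replicate number as a block (replicate block) the count was 0 of 8 in each comparison, and calls over all probes went from 27 to 0 (old against young, the 3 hemoglobin genes included), from 3 to 0 and from 124 to 23. The labels share only a number: 3 of 18 same-numbered pairs correlated above 0.1 (-0.26 to 0.21), and 3 arrays correlated best with their own number. By the methods' t-test 0 member probes passed the study's thresholds or Benjamini-Hochberg adjustment in any comparison. Intensities of 6 animals per age left fold intervals as wide as 0.634 to 2.42. The 7 probes near background entered only the fit without a detection filter and the methods' t-test, and none passed after adjustment (lowest adjusted p = 0.37 for TIE1 in the former).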

Other observations

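Fiber markers varied widely between animals. The mean of 7 slow fiber markers ranged from -1.77 to 1.53 on the log2 scale around the mean of all animals in young, from -2.61 to 2.22 in middle-aged and from -2.22 to 0.81 in old muscle. No slow fiber gene was called in any comparison, and the smallest p was that of ATP2A2, the calcium pump of slow fibers, at -0.78 in old against middle-aged muscle (SE 0.75, adjusted p = 0.63). MYL3 stood at -0.77 (adjusted p = 0.72). Of 6 tested fast fiber markers none was called, with TNNT3 at -0.28 and TNNC2 at -0.27 in old against middle-aged muscle (adjusted p = 0.33 and 0.38). In that comparison 3 of the 6 lay above 0 and 3 below (median -0.05). Among skeletal muscle markers DES, the desmin gene, stood at 0.51 and MYBPC1 at 0.42 in old against young muscle (adjusted p = 0.42 and 0.70). Of the 8 markers, 3 lay above 0 and 5 below in that comparison (median -0.043). LEP, the leptin gene of fat cells, stood at 0.39 and ADIPOQ at 0.16 in the same comparison (adjusted p = 0.18 and 0.64). Of the macrophage markers CD163 was at 0.28 and CSF1R at 0.17 (adjusted p = 0.72 and 0.93).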
